A study of Mus musculus with 14 samples.

Results

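The genes described here are 10 genes that mark or serve regulatory T-cells: Foxp3, Il2ra, Ikzf2, Ikzf4, Tnfrsf18, Tnfrsf9, Lrrc32, Itgae, Nt5e and Entpd1. They were chosen by name, as every array probe whose gene name in the scanner files was 1 of the 10. This gave 22 of the 56605 probes on the array that were not controls. RNA of CD4+ T-cells was measured on 14 one-colour arrays, each from 1 mouse as far as the labels tell, 7 of genotype Roquin san/+ and 7 wild-type. Roquin san/+ mice carry 1 sanroque allele of Roquin, and wild-type mice carry none. No treatment, age or gating within the CD4+ T-cells was named in the labels, so regulatory T-cells were measured together with all other CD4+ T-cells. Nothing in the labels says how separately the mice or the RNA preparations were handled, and the p-values measure the spread between these arrays. In such bulk RNA, fewer cells of a type and less RNA per cell cannot be told apart.

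Regulatory T-cells are CD4+ T-cells that restrain other immune cells. The transcription factor Foxp3 defines them. They consume IL-2 through its high-affinity receptor, display latent TGF-beta on Lrrc32, and turn extracellular ATP into adenosine by the paired enzymes Entpd1 and Nt5e. Roquin is an RNA-binding protein that shortens the life of messenger RNAs in T-cells, and the sanroque allele leads to an excess of follicular helper T-cells. Several of the 10 genes are not restricted to regulatory T-cells: activated T-cells use Il2ra and Tnfrsf9, dendritic cells and intraepithelial T-cells use Itgae, and B-cells and myeloid cells use Entpd1.

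The array reads each gene through probes of 60 bases. Of the 22 probes, 20 lay in 1 unbroken stretch of the genome. Both Itgae probes matched mm9 intervals longer than themselves, of 1459 and 986 bases, and so read across a splice junction. They are shown because Itgae gave the clearest separation of the genotypes. The first, at chr11:72959105-72960563 on the plus strand, stood for the gene. The second lay at chr11:72945236-72946221.
Itgae, brighter probe: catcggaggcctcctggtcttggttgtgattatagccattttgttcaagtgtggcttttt
Itgae, dimmer probe: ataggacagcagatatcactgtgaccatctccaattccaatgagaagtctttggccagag
A pair of the 5 Ikzf4 probes is shown because probes of that gene gave unequal differences. They lay on the minus strand of mm9, the first at chr10:128071259-128071318 and the second at chr10:128070889-128070948.
Ikzf4, brighter probe of the pair: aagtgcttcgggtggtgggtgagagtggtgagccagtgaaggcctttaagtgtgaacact
Ikzf4, dimmest probe: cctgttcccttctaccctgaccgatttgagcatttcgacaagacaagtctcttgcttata

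RefSeq promoter windows (GRCm38.p6, from 250 bases before a transcript's start to 50 after it) were at hand for 6 of the 10 genes, in 9 windows. They were searched for TTCNNNGAA, the spaced palindrome that STAT proteins recognise downstream of the IL-2 receptor. The motif is its own reverse complement, so 1 search covers both strands. It was found in 3 of the 9 windows, of 3 genes, and in 2726 of all 32851 windows (8.30%). A match is a string of letters and was not tested as a binding site. The 3 windows are shown because they belong to Foxp3 and to a pair of receptors whose levels are set against it below, with the motif in capitals. They are on the plus strand, Foxp3 at chrX:7580233-7580532, Tnfrsf9 at chr4:150927749-150928048 and Tnfrsf18 at chr4:156026072-156026371.
Foxp3, window at 1 of its 2 starts: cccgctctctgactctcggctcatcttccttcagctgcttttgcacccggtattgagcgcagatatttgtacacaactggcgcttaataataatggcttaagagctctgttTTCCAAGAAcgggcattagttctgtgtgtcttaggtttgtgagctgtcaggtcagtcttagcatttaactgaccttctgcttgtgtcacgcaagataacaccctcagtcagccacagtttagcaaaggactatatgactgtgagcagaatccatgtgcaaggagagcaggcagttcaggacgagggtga
Tnfrsf9, window at 1 of its 2 starts: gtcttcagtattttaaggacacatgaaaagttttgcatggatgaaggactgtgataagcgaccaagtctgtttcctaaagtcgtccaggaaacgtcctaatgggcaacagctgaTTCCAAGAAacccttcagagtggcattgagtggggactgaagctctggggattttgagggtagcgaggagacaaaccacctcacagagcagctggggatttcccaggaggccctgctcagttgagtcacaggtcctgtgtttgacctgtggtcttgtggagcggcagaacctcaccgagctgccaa
Tnfrsf18: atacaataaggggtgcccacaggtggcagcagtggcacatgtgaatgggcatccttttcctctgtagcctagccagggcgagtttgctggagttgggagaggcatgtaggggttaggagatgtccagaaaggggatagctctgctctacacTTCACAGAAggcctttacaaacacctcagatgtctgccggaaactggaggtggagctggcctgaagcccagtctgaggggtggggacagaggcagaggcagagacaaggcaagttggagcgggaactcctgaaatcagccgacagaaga

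Several arrays stood apart from the rest. Replicate G of Roquin san/+ and replicate E of wild-type had been read 2 grid rows away from their probe names, and their spots were moved back. Their detection calls and lowest values could not be repaired. Roquin san/+ replicate C was dim, with a 75th percentile of 300.04 signal units against 1582 to 4444 on the other 13 arrays. The 5 T-cell markers (Cd3d, Cd3e, Cd3g, Cd4 and Cd28) were well above background on all 12 well-placed arrays. Their mean level was lowest on Roquin san/+ replicates F (1.78) and C (1.92) and on wild-type replicate C (2.21), against 2.92 to 3.43 on the other 11. Roquin san/+ replicate F also had the highest level in its group for 23 of 27 markers of CD8 T-cells, B-cells, myeloid cells, dendritic cells, NK cells and erythroid cells. The 3 plasma cell markers were not in that count. Their mean was highest in that group on replicate C (0.01), with replicate F at -0.91. In wild-type, replicate C had the highest list mean of its group for myeloid (0.73), plasma cell (0.38) and erythroid (0.68) markers. It was not the highest for CD8 T-cell, B-cell, dendritic cell or NK markers. Slide 1 held 5 Roquin san/+ and 2 wild-type arrays and slide 2 held 2 and 5, so slide and genotype overlapped in part.

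**Figure D1:**
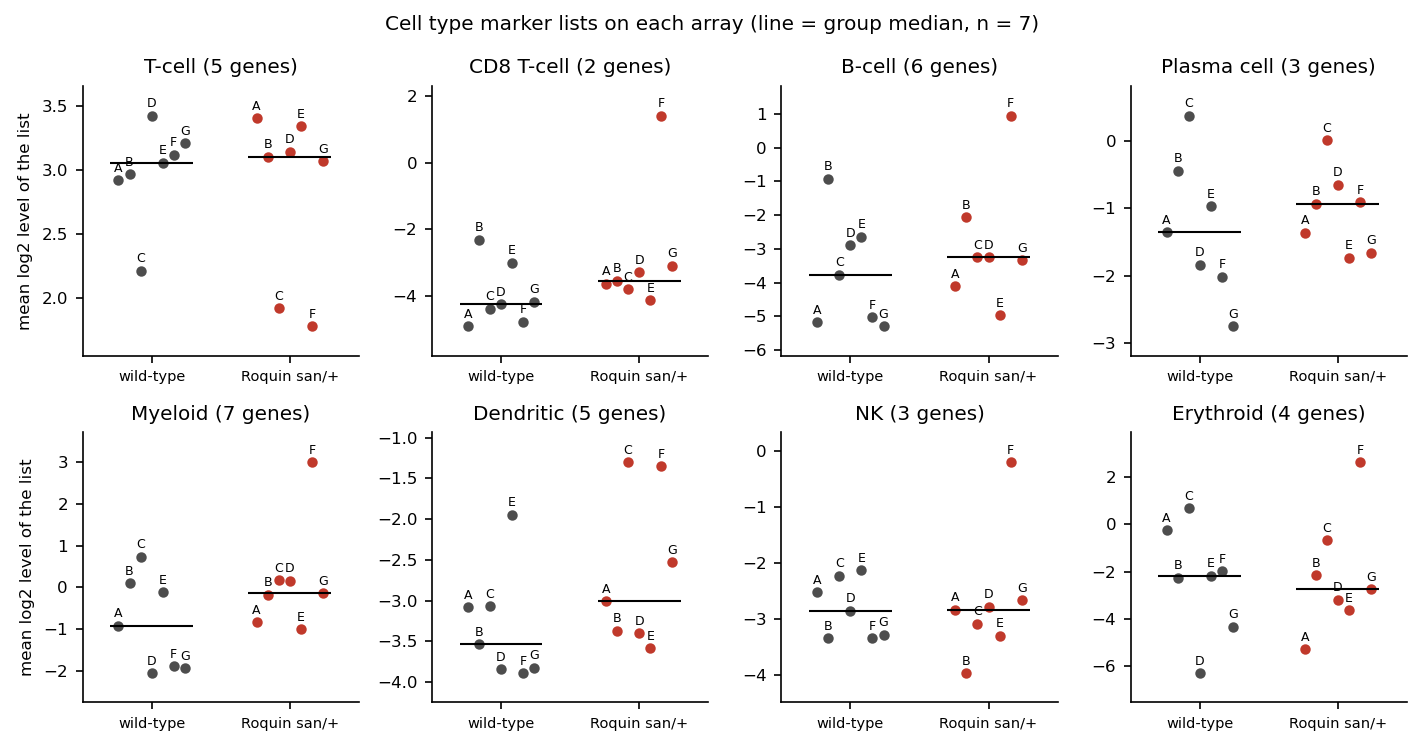
Mean log2 level (75th percentile of the array = 0) of each cell type marker list on every array, by genotype, with the replicate letter at each point and the group median as a line (n = 7). Roquin san/+ replicate F lies lowest for T-cell markers (1.78) and highest in its group for CD8 T-cell (1.41), B-cell (0.95), myeloid (3.0), NK (-0.21) and erythroid (2.62) markers. Dendritic (-1.30) and plasma cell (0.01) markers are highest in that group on replicate C.

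Levels are given below as log2 of the processed signal minus the array's own 75th percentile, so that 0 is a bright probe and each step of 1 is a doubling. Levels of different probes are not compared with each other. A probe was tested if it was well above background on at least 6 of the 12 well-placed arrays. This kept 32831 probes, among them 21 of the 22 probes of the 10 genes. The exception was the dimmest Entpd1 probe, which was well above background on 3 arrays. Where a gene had several tested probes, the brightest stood for it.

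The first question was whether Roquin san/+ CD4+ T-cells differed from wild-type cells in these 10 genes. None of the 10 passed limma's test after Benjamini-Hochberg adjustment over all 32831 probes, where 0 probes (0%) passed. The adjusted p of the 10 ranged from 0.884 to 0.977. At an unadjusted limma p under 0.05 there were 997 probes, 816 of them higher in Roquin san/+ (2.49% of all tested) and 181 lower (0.551%). The split depended on the scaling, with 566 of 992 higher when the 75th percentile was taken over all probes, 423 of 790 after quantile normalization and 710 of 1521 in the authors' log2 values. Of the 10 genes, Itgae and Entpd1 lay below that unadjusted limit, both higher in Roquin san/+. The mean was higher in Roquin san/+ for all 10 genes and for 18383 of all 32831 tested probes (56.0%), with a median difference of 0.28 against 0.05 over all tested probes, but Il2ra and Tnfrsf18 turned lower when the 75th percentile was taken over all probes.

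**Figure D2:**
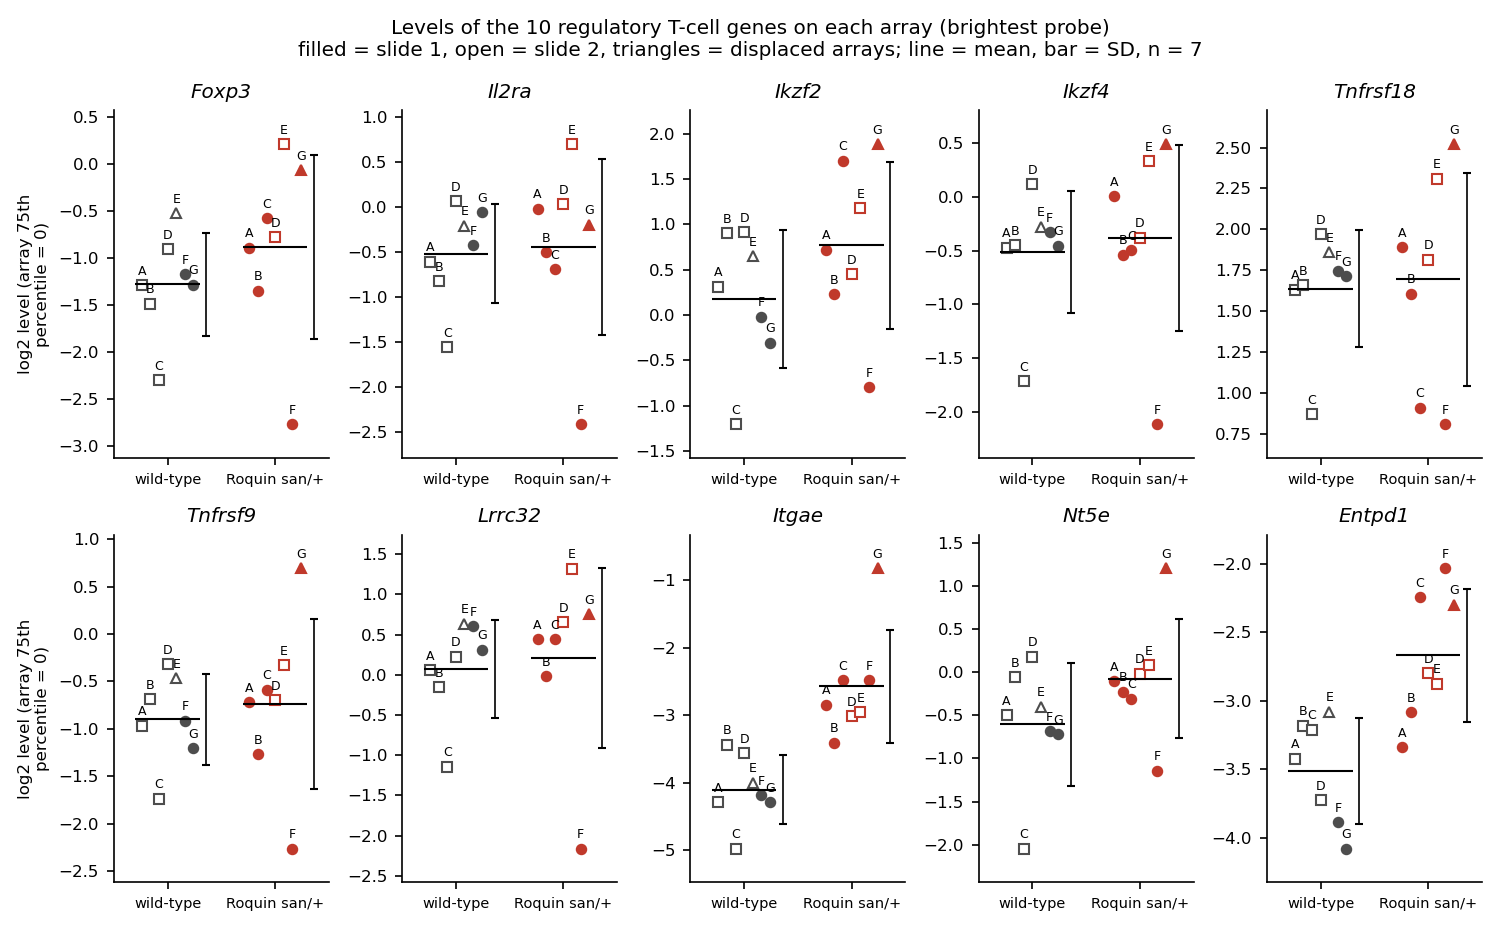
Log2 level (75th percentile of the array = 0) of the brightest probe of each of the 10 genes on all 14 arrays, by genotype, with replicate letters, the mean as a line and the SD as a bar (n = 7). The groups overlap for every gene but Itgae, and Roquin san/+ replicate F and wild-type replicate C are the lowest of their groups for the 8 genes other than Itgae and Entpd1.

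Foxp3, the factor that sets the regulatory T-cell programme, was read by 1 probe at chrX:7172301-7172360 that was well above background on all 14 arrays. Its level ran from -2.77 through a median of -0.77 to 0.21 in Roquin san/+ and from -2.30 through -1.28 to -0.52 in wild-type. The groups overlapped widely. Roquin san/+ replicates E and G were the only arrays above the highest wild-type array, and the lowest array of all was Roquin san/+ replicate F. The mean difference was 0.39 (limma SE 0.40, adjusted p = 0.886), a 1.31-fold difference, with a two-sided exact permutation p of 0.381 over 3432 arrangements. Its size depended on single arrays and on the slide. The Foxp3 difference was 0.71 without Roquin san/+ replicate F (limma adjusted p = 0.968, exact permutation p = 0.0443), 0.21 without replicate E, 0.099 within slide 1 and 1.02 within slide 2 (exact permutation p = 0.952 and 0.190), and 0.099 with a sex-linked covariate.

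Ikzf2 (Helios) and Ikzf4 (Eos) are zinc-finger factors of the Ikaros family that accompany Foxp3. Ikzf2 ran from -0.79 through 0.72 to 1.89 in Roquin san/+ and from -1.21 through 0.31 to 0.91 in wild-type. Roquin san/+ replicates C, E and G lay above every wild-type array, and the other 4 lay among them. Its difference was 0.59 (limma SE 0.43, adjusted p = 0.884, exact permutation p = 0.217), and 0.85 without Roquin san/+ replicate F (limma adjusted p = 0.968, exact permutation p = 0.0594). The other 2 Ikzf2 probes, 1 of them at chr1:69578252-69578311 and apart from the others, differed by 0.41 and 0.57. Ikzf4 ran from -2.11 through -0.38 to 0.49 in Roquin san/+ and from -1.71 through -0.45 to 0.12 in wild-type, with medians that nearly coincide. Its difference was 0.13 (limma SE 0.37, adjusted p = 0.959). The 5 Ikzf4 probes all had a higher mean in Roquin san/+ but gave unequal sizes. The brightest 2 differed by 0.13 and 0.23, and the next, whose sequence is given above, by 0.98 with a limma SE of 0.59. On that probe both displaced arrays were at their lowest recorded values. The dim array, Roquin san/+ replicate C, read -1.15 on it, against -5.77 to -3.14 on the rest of its group. The other 2 were dim and differed by 0.26 and 0.32.

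Il2ra, the alpha chain of the IL-2 receptor (CD25), ran from -2.42 through -0.20 to 0.70 in Roquin san/+ and from -1.56 through -0.43 to 0.06 in wild-type. Only Roquin san/+ replicate E exceeded the wild-type range. The difference was 0.08 (limma SE 0.40, adjusted p = 0.977). A second Il2ra probe, at chr2:11570205-11570264, differed by 0.43 (limma SE 0.35, adjusted p = 0.884). On it the dim array, Roquin san/+ replicate C, read 0.05, against -2.72 to -1.60 on the rest of its group. Both probes had overlapping groups.

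Tnfrsf18 (GITR) and Tnfrsf9 are costimulatory receptors of the TNF family. Tnfrsf18 ran from 0.81 through 1.82 to 2.52 in Roquin san/+ and from 0.87 through 1.71 to 1.97 in wild-type. Tnfrsf9 ran from -2.27 through -0.69 to 0.70 in Roquin san/+ and from -1.74 through -0.91 to -0.32 in wild-type. The groups overlapped for both genes. The difference of Tnfrsf18 was 0.06 (limma SE 0.28, adjusted p = 0.975). That of Tnfrsf9 was 0.16 (limma SE 0.37, adjusted p = 0.946), and its dimmer probe differed by 0.20. Lrrc32 (GARP), the surface anchor of latent TGF-beta, ran from -2.16 through 0.44 to 1.32 in Roquin san/+ and from -1.15 through 0.22 to 0.63 in wild-type. Its groups also overlapped, and the difference was 0.13 (limma SE 0.45, adjusted p = 0.966).

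Itgae encodes CD103, the integrin chain that pairs with the beta-7 chain and binds E-cadherin on epithelium. Its brighter probe read -2.85 on Roquin san/+ replicate A, -3.41 on B, -2.48 on C, -3.01 on D, -2.96 on E, -2.49 on F and -0.83 on G. The wild-type arrays read -4.29 on A, -3.43 on B, -4.97 on C, -3.56 on D, -4.00 on E, -4.18 on F and -4.28 on G. Every Roquin san/+ array lay above every wild-type array, although replicates B of both genotypes were nearly equal. Such a separation with Roquin san/+ higher was found for 11 of 32831 tested probes (0.0335%), and with Roquin san/+ lower for 3 (0.00914%). The difference was 1.53 (limma SE 0.35), or 2.88-fold, with an exact permutation p of 0.000583, the smallest that 3432 arrangements can give. Its limma p of 0.000631 ranked 8 among all tested probes and gave an adjusted p of 0.884.

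The Itgae difference was smaller without the displaced arrays. Wild-type replicate E was at its lowest recorded value and not called above background, and Roquin san/+ replicate G was the highest. Without both, the difference was 1.25 (limma SE 0.27, exact permutation p = 0.00216, the smallest that 924 arrangements can give), and the groups still did not overlap. Without Roquin san/+ replicates C and F as well, a setting chosen after seeing the data, it was 1.07 (exact permutation p = 0.00952). Within slide 1 it was 1.82 (5 against 2 arrays, exact permutation p = 0.0476, the smallest of 21 arrangements) and within slide 2 it was 1.07 (2 against 5, exact permutation p = 0.0952). Scaled to Cd3d, Cd3e, Cd3g and Cd4 it was 1.70 (exact permutation p = 0.00117), and the groups then overlapped. The dimmer Itgae probe was well above background on 7 arrays only and differed by 0.91 (limma SE 0.63, exact permutation p = 0.208), with overlapping groups. Dendritic cell markers (Itgax, Flt3, Xcr1, Zbtb46 and Siglech) ranged from -3.58 to -1.30 in Roquin san/+ and from -3.89 to -1.95 in wild-type as a list mean, with 3 of the 5 well above background on all well-placed arrays. CD8 T-cell markers (Cd8a and Cd8b1) ranged from -4.12 to 1.41 in Roquin san/+ and from -4.92 to -2.31 in wild-type as a list mean. They were highest on replicate F in Roquin san/+ and on replicate B in wild-type, and differed by 1.11 between the group means. The part of either list in the Itgae difference was not tested.

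Entpd1 (CD39) and Nt5e (CD73) are surface enzymes that act in sequence to make adenosine. Entpd1 read -3.34, -3.08, -2.25, -2.80, -2.88, -2.03 and -2.30 on Roquin san/+ replicates A to G, and -3.42, -3.18, -3.21, -3.72, -3.08, -3.89 and -4.08 on wild-type replicates A to G. Of the Roquin san/+ arrays, 5 lay above the highest wild-type array and all 7 above the wild-type median. The difference was 0.84 (limma SE 0.24), or 1.79-fold, with an exact permutation p of 0.00466, a limma p of 0.00307 and an adjusted p of 0.884. The highest arrays were Roquin san/+ replicates F and C, which had the lowest T-cell marker means and the highest dendritic cell marker means (-1.35 and -1.30) of all arrays. Myeloid markers ranged from -1.0 to 3.0 in Roquin san/+ and from -2.05 to 0.73 in wild-type, with 6 of 7 well above background on all well-placed arrays, and the highest was replicate F. B-cell markers ranged from -4.96 to 0.95 and from -5.29 to -0.92, with 4 of 6 well above background. Between group means, myeloid markers were higher in Roquin san/+ by 1.04, B-cell markers by 0.81 and dendritic cell markers by 0.67. The part of these lists in the Entpd1 difference was not tested. Without replicates C and F, chosen after seeing the data, the Entpd1 difference was 0.63 (exact permutation p = 0.0215), and without the displaced arrays as well it was 0.56 (exact permutation p = 0.0381). Scaled to the T-cell genes it was 1.01 (exact permutation p = 0.0629), and as the mean of the gene's tested probes 0.77 (exact permutation p = 0.0612). Within slide 1 it was 1.38 (exact permutation p = 0.0476) and within slide 2 it was 0.49 (exact permutation p = 0.0952). The second Entpd1 probe differed by 0.69 (limma SE 0.50), and the third was too dim to test.

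Nt5e ran from -1.14 through -0.11 to 1.20 in Roquin san/+ and from -2.05 through -0.50 to 0.18 in wild-type. The highest array, Roquin san/+ replicate G, was the only one beyond the wild-type range, and 6 of 7 Roquin san/+ arrays lay above the wild-type median. The difference was 0.53 (limma SE 0.36, adjusted p = 0.884, exact permutation p = 0.203). Its dimmer probe differed by 0.65 (limma SE 0.52).

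**Figure D3:**
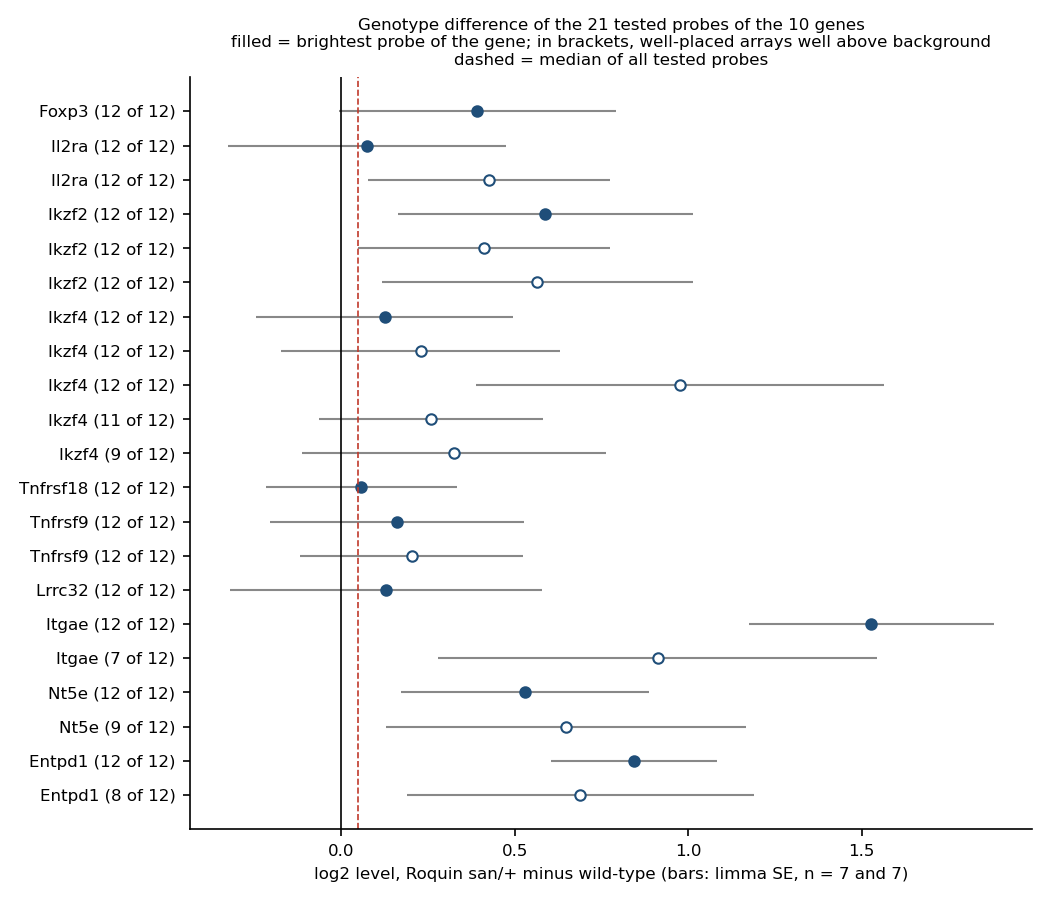
Difference in log2 level, Roquin san/+ minus wild-type, for each of the 21 tested probes of the 10 genes, with limma's SE as bars (n = 7 and 7), the gene's brightest probe filled, and the number of well-placed arrays on which the probe was well above background in brackets. The dashed line is the median of all tested probes (0.05); the brighter Itgae probe lies at 1.53 and the brightest Entpd1 probe at 0.84.

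The second question was whether the other 9 genes went up and down with Foxp3 from mouse to mouse. In a limma fit with genotype and the Foxp3 level as terms, the slope of Lrrc32 on Foxp3 was 1.09 (SE 0.12, adjusted p = 0.0105), that of Ikzf4 was 0.85 (SE 0.12, adjusted p = 0.0236), that of Il2ra was 0.90 (SE 0.14, adjusted p = 0.0246) and that of Tnfrsf9 was 0.82 (SE 0.13, adjusted p = 0.0248). These 4 of 9 genes passed the threshold, beside 77 of 32830 probes in all (0.235%). Slopes of Ikzf2 (0.89, adjusted p = 0.0646), Tnfrsf18 (0.52, adjusted p = 0.140) and Nt5e (0.67, adjusted p = 0.149) were positive and did not pass. Slopes of Itgae (0.30, adjusted p = 0.753) and Entpd1 (-0.13, adjusted p = 0.865) were smaller. At an unadjusted limma p under 0.05, 7 of the 9 had a positive slope, against 5.09% of all probes. Whether any pair of slopes differed was not tested.

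All 4 calls were lost without Roquin san/+ replicate F, the array lowest in T-cell markers. Without it 0 of the 9 genes and 0 of all probes (0%) passed limma's adjusted threshold. The slopes of the 4 were then 0.71 to 0.88, and their unadjusted limma p ranged from 0.000123 for Lrrc32 to 0.00465 for Il2ra. Slopes of the rest were then 0.95 for Ikzf2, 0.79 for Nt5e, 0.71 for Itgae, 0.58 for Tnfrsf18 and 0.12 for Entpd1. Itgae, with an unadjusted limma p of 0.0496, thus had a slope like that of Il2ra. None of the 9 passed when levels were scaled to the T-cell genes, with slopes of 0.92 for Lrrc32 and 0.57 for Il2ra. The same value of each array was subtracted from both genes there, which can by itself raise a slope. Without wild-type replicate C, the other array low in both Foxp3 and T-cell markers, Lrrc32 alone passed, and without wild-type replicate A, Lrrc32 and Ikzf4. Without Roquin san/+ replicate C, 6 of the 9 passed, with Ikzf2 and Tnfrsf18 added to the 4.

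As correlations over all 14 arrays, Lrrc32 followed Foxp3 with Pearson's r = 0.94 and Spearman's rho = 0.94 (permutation p = 1e-05, the smallest that 100000 resamples can give, and 2e-05). Ikzf4 had r = 0.92 and rho = 0.78 (permutation p = 7e-05 and 0.00155), Tnfrsf9 r = 0.89 and rho = 0.82 (permutation p = 3e-05 and 0.00056) and Il2ra r = 0.88 and rho = 0.71 (permutation p = 0.00012 and 0.00659). Ikzf2 had r = 0.84 and rho = 0.75, Tnfrsf18 r = 0.77 and rho = 0.78, and Nt5e r = 0.77 and rho = 0.63, with permutation p of 0.00022 to 0.0179. Itgae (r = 0.41, rho = 0.43, permutation p = 0.148 and 0.128) and Entpd1 (r = 0.03, rho = 0.25, permutation p = 0.921 and 0.385) did not pass. The adjusted values of these 9 relations are those of the limma fit above.

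The 2 arrays farthest from the median Foxp3 level were Roquin san/+ replicate F and wild-type replicate C. Without both, r was 0.88 for Lrrc32, 0.76 for Ikzf4, 0.75 for Tnfrsf9, 0.69 for Ikzf2 and 0.64 for Il2ra. It was then 0.63 for Itgae and 0.62 for Entpd1, which over all 14 arrays had been 0.41 and 0.03. Within genotypes, r of Lrrc32 was 0.97 in Roquin san/+ and 0.91 in wild-type, and within slides it was 0.91 on slide 1 and 0.99 on slide 2. Within genotypes and slides, r of Ikzf4, Tnfrsf9, Il2ra, Ikzf2, Tnfrsf18 and Nt5e was positive throughout, from 0.65 for Tnfrsf18 on slide 1 to 0.96 for Il2ra on slide 2. Each of these subsets still held an array far from the median, since Roquin san/+ replicate F was on slide 1 and wild-type replicate C on slide 2. With both left out, r was 0.52 for Tnfrsf18 and 0.58 for Nt5e. Scaled to the T-cell genes, r was 0.89 for Lrrc32, 0.90 for Ikzf4, 0.84 for Tnfrsf9 and 0.82 for Il2ra. That scaling subtracts the same value of each array from both genes, which can by itself raise r. The r of Entpd1 moved from 0.03 to 0.39 under it. The scaled r therefore cannot tell co-variation with Foxp3 from this shared term.

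**Figure D4:**
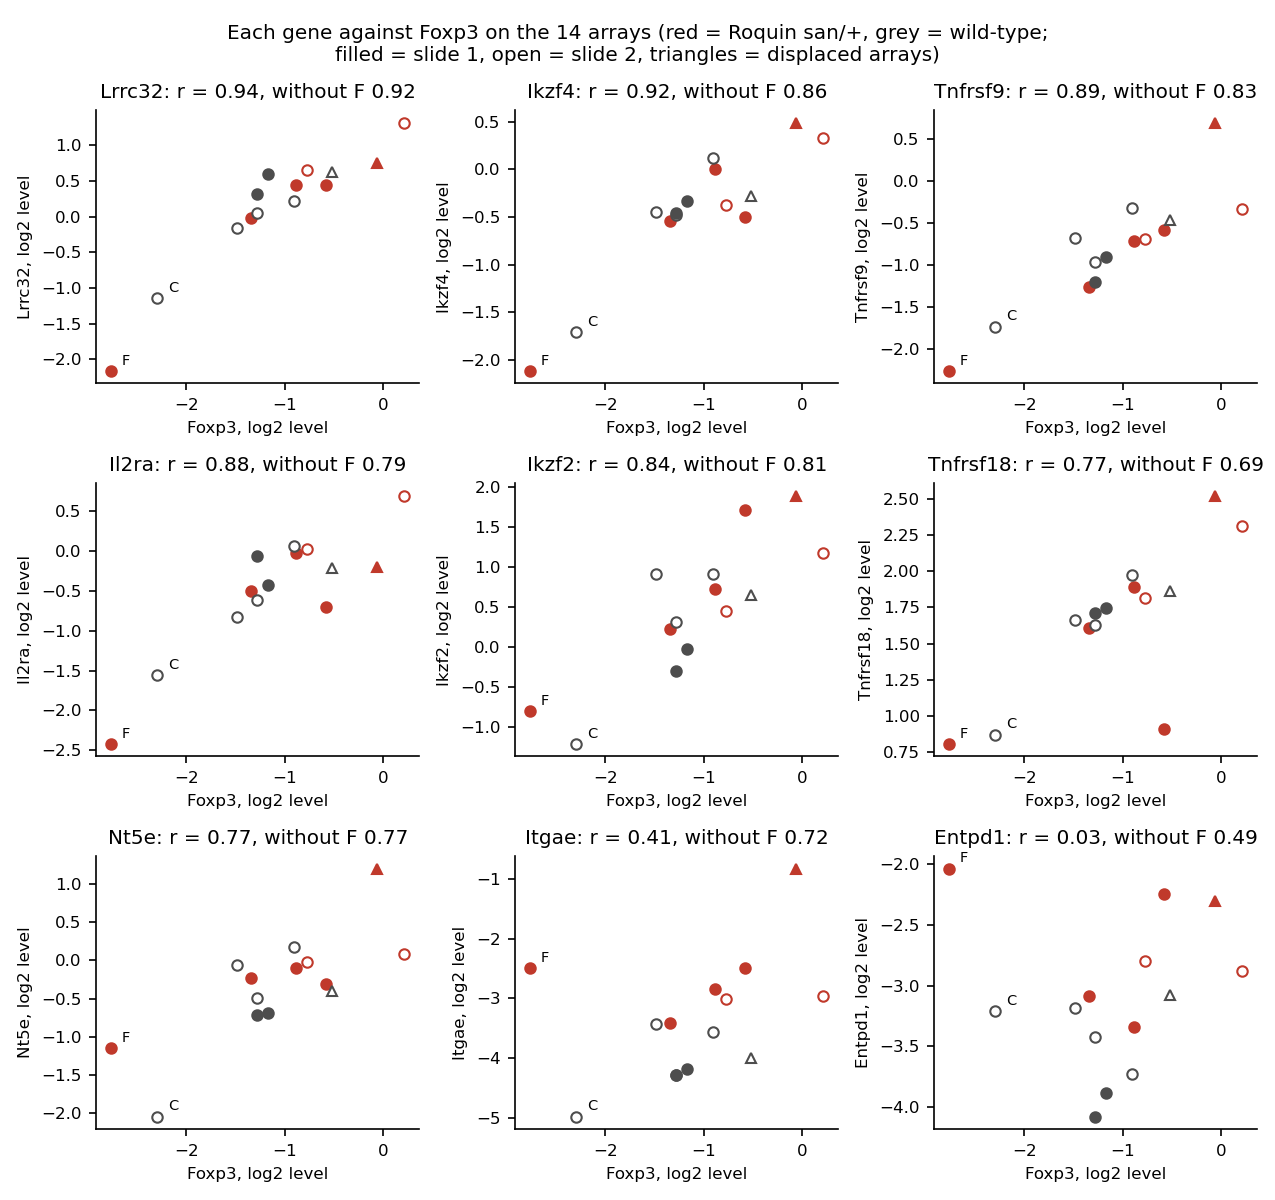
Log2 level (75th percentile of the array = 0) of the other 9 genes against that of Foxp3, 1 point for each of the 14 arrays, with Pearson's r with and without Roquin san/+ replicate F above each panel. Replicate F and wild-type replicate C lie at the low end of Foxp3 (-2.77 and -2.30), and Lrrc32 keeps r = 0.92 without replicate F.

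Among all tested probes, the genes whose pattern was most like that of Foxp3 were ranked by Pearson's r over the 14 arrays after genotype means were subtracted, as a description. The 10 highest were Pitpnm2 (0.97), Lrrc32 (0.95), A430093F15Rik (0.95), Ikzf4 (0.94, by its second probe), Espn (0.93), Alg12 (0.93), Mink1 (0.93), Scaf4 (0.93), 4933407O12Rik (0.92) and Slc22a2 (0.92). Lrrc32 and Ikzf4 were thus the only ones of the 10 regulatory T-cell genes in that list. Of 32830 probes ranked, Lrrc32 came 2, the brightest Ikzf4 probe 7, Tnfrsf9 31, Il2ra 34, Ikzf2 125, Tnfrsf18 234, Nt5e 382, Itgae 5717 and Entpd1 24893. The values of 1 point share an array, its RNA and its brightness, and without replicate F the r of Pitpnm2, Lrrc32 and Ikzf4 (second probe) was 0.93, 0.90 and 0.86. Scaled to the T-cell genes it was 0.70 for Pitpnm2, 0.90 for Lrrc32 and 0.88 for Ikzf4, with the same value of each array subtracted from both genes.

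The third question concerned other genes of the same pathways, 67 in 7 lists, of which 63 had a tested probe. None of the 63 passed limma's adjusted threshold (lowest adjusted p = 0.884). At an unadjusted limma p under 0.05, 9 were higher in Roquin san/+ and 0 lower. The median difference was 0.16 against 0.05 over all tested probes. The list of effector genes of regulatory T-cells held 6 of these 9 among 15 tested, where 2.49% of all tested probes were likewise higher. Of the 15, 13 had a higher mean in Roquin san/+ against 56.0% of all tested probes, with a median difference of 0.62. The lists were chosen with earlier results of these data known. The 15 genes were read on the same arrays and are not 15 independent observations. Which of the CD4+ T-cells gave these differences was not tested. Irf4, a factor of effector T-cell differentiation, had a mean of -1.68 ± 0.56 (SD, n = 7) on the Roquin san/+ arrays against -2.58 ± 0.54 on the wild-type arrays, a difference of 0.90 (limma adjusted p = 0.884, exact permutation p = 0.0105). Gzmb, which encodes the cytotoxic protease granzyme B, differed by 0.89 (exact permutation p = 0.0198). The other 4 of the 6, named here after their values were seen, were the inhibitory receptors Tigit (1.17), Lag3 (1.17) and Klrg1 (0.62) and the cytokine subunit Ebi3 (0.65). Their exact permutation p was 0.0577, 0.0740, 0.0245 and 0.0233 in that order. The unadjusted limma p, by which they were counted, was 0.0366, 0.0481, 0.0204 and 0.0339. The count was 8 of 15 without Roquin san/+ replicate F against 1.66% of all tested probes, 5 of 15 without replicate C against 1.89% and 4 of 15 without both against 1.29%. It was 2 of 15 without the displaced arrays against 6.25%. It was 5 of 15 with slide as a block against 1.18%, 5 of 15 within slide 1 against 8.78% and 0 of 15 within slide 2 against 0.426%, and 6 of 15 scaled to the T-cell genes against 1.01%. NK and CD8 T-cell markers, which are found in cells that also use Gzmb, were highest on Roquin san/+ replicate F at -0.21 and 1.41. The part of these markers in the count or in Gzmb was not tested.

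The other lists showed fewer low limma p-values. Counts here too are by unadjusted limma p under 0.05, and a gene's exact permutation p can lie on the other side of 0.05. Foxp3 partners and inducers had 0 of 14 below that limma limit, 6 higher and 8 lower in mean. Among the lower were Stat5a, which transmits the IL-2 signal, at a difference of -0.41 (exact permutation p = 0.0851) and Foxo3 at -0.23 (exact permutation p = 0.0460, unadjusted limma p = 0.130). The IL-2 axis had 0 of 5 and a median difference of 0.39. The TNF receptor axis had 1 of 5 (Tnfrsf1b, at a difference of 0.49, exact permutation p = 0.0169), the latent TGF-beta axis 1 of 8 (Itgb8, at 1.12, exact permutation p = 0.0682) and the adenosine axis 0 of 6, with median differences of 0.27, 0.05 and -0.04. Homing and surface genes had 1 of 10, the chemokine receptor Cxcr3, with a mean of 1.66 ± 0.40 on the Roquin san/+ arrays against 1.01 ± 0.44 on the wild-type arrays, a difference of 0.65 (SD, n = 7, exact permutation p = 0.00932, limma adjusted p = 0.884). Itgb7, the partner chain of Itgae, went the other way in mean, by -0.79 (limma SE 0.50, exact permutation p = 0.166).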

How the data were processed

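The authors deposited Agilent Feature Extraction 10.5.1.1 scanner output of 14 one-colour (Cy3) arrays as intensities of single spots, including a background-subtracted processed signal, and a table of normalized log2 values whose method is not given in the sources used here. The processed signal was used, and the deposited log2 table served as an alternative. Arrays were set against the median of all 14 over shifts of up to 6 grid rows and columns. Replicate G of Roquin san/+ and replicate E of wild-type were moved by 2 rows, which left 328 spots of each without a value.

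Flagged outlier and control spots were left out, spots of a probe were averaged, and log2 signals were set to 0 at each array's 75th percentile over 24285 probes well above background on the 12 well-placed arrays. The filter (well above background on at least 6 of these 12) does not look at genotype, and 289 probes that passed it were dropped for a missing value. limma 3.58.1 in R 4.3.3 (lmFit, eBayes, Benjamini-Hochberg, threshold 0.05) was checked on simulated data. Single values were tested by exact permutation and correlations by 100000 resamples (Python 3.11.15, numpy 2.4.6). The number of arrays limits the precision.

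The 10 genes, the pathway lists and the marker lists were chosen with earlier results of these data known. All 10 genes are named. Of the pathway lists, genes with an adjusted p under 0.05 were to be named, or else the 3 with the smallest p in each direction. Of genes like Foxp3, the 10 with the highest r are named.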

Additional observations from a re-analysis of the deposited data

Results flagged for a closer look

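In each genotype, the level of each of the 10 genes was examined for 1 array far from the other 6, by the gap to its neighbour relative to the range of the group. Chance alone marks about 1 in 20 such groups, and here 6 of 20 were marked, with the same arrays recurring. Wild-type replicate C was the lowest of its group for Ikzf4 (-1.71, the others -0.47 to 0.12), Tnfrsf18 (0.87, the others 1.63 to 1.97) and Nt5e (-2.05, the others -0.72 to 0.18). In Roquin san/+, replicate F was lowest for Ikzf4 (-2.11, the others -0.54 to 0.49) and Lrrc32 (-2.16, the others -0.02 to 1.32). Both arrays were low in T-cell markers. Roquin san/+ replicate G, a displaced array, was the highest of its group for Itgae (-0.83, the others -3.41 to -2.48).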

How the results depend on the processing

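No probe passed limma's adjusted threshold between genotypes under any of the 35 alternatives, and the differences of Foxp3, Ikzf2, Itgae, Nt5e and Entpd1 kept their direction under all alternatives that tested them. The median of all probes was 0.05, and moved to 0.21 with normexp, -0.08 with quantile normalization, -0.07 with the 75th percentile over all probes and 0.22 scaled to T-cell genes. Smaller differences changed sign. With the 75th percentile over all probes, Il2ra was -0.043 and Tnfrsf18 -0.060. Within slide 1, Il2ra was -0.52, Ikzf4 -0.14, Tnfrsf18 -0.18 and Lrrc32 -0.57. Without both displaced arrays, Tnfrsf18 was -0.042 and Tnfrsf9 -0.0066. With the deposited probe names, Ikzf4 was -0.057, Tnfrsf18 -0.11 and Tnfrsf9 -0.079, and Itgae was 1.0. With a sex-linked covariate (Xist minus Ddx3y), Il2ra was -0.090, Ikzf4 -0.067, Tnfrsf18 -0.080, Tnfrsf9 -0.099 and Lrrc32 -0.12. Leaving out each array in turn gave -0.12 to 0.40 for Il2ra, -0.074 to 0.41 for Ikzf4, -0.080 to 0.21 for Tnfrsf18, -0.079 to 0.41 for Tnfrsf9, -0.074 to 0.52 for Lrrc32, 0.21 to 0.71 for Foxp3, 0.36 to 0.85 for Ikzf2, 0.29 to 0.71 for Nt5e, 1.24 to 1.67 for Itgae and 0.74 to 0.96 for Entpd1. The cause was not tested.

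Deviations of arrays of the same replicate letter correlated at -0.28 to 0.41. The main fit did not treat them as pairs, and whether the letters pair mice or handling was not tested. The replicate block gave 0 calls, with 799 probes at an unadjusted p under 0.05. The replicate block with slide as a block turned Il2ra to -0.31, Ikzf4 to -0.18 and Lrrc32 to -0.30.

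Of the 9 genes, the number called on Foxp3 was 4, and it was 2 with the mean of a gene's probes, 0 to 6 leaving out each array, and 0 both without Roquin san/+ arrays C and F and scaled to T-cell genes, the last 2 being chosen after seeing the data. The slope of Entpd1 was then 0.12 and 0.31, and -0.20 to 0.12 leaving out each array. That of Itgae was 0.71 and 0.50, and 0.083 to 0.71 leaving out each array.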
